A study of Homo sapiens with 21 samples.

Results

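The zinc finger genes of human chromosome 19 were described by the open chromatin at their ends and between them. The members were 324 regions of 166736 in all, chosen by position alone. Peaks of 21 ATAC-seq libraries that shared at least 1 bp were merged into regions. A region was taken when the nearest protein-coding gene span on chromosome 19, within 100 kb, had a symbol of ZNF followed by digits, with 1 such gene left out by the rule. These regions belonged to 203 of 239 such genes, and 36 genes were the nearest gene of no region. The farthest member lay 90.6 kb from its gene (ZNF507), and the nearest region beyond the limit lay 107 kb from the same gene and was called in all 21 libraries. For 25 members more than 1 gene span was equally near. Then the span with the larger overlap was taken.

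ATAC-seq maps accessible DNA with a transposase that cuts and tags it. The cells were microglia-like and derived from H9, a human embryonic stem cell line in wide use, by 28 days of microglial differentiation, and 80000 viable cells per line were sorted. There were 7 lines with 3 libraries each: unedited WT, TREM2-R47H and TREM2-KO, SORL1-A528T and SORL1-KO, CD33 SNP and INPP5D SNP. All edits were made with CRISPR/Cas9 and a repair oligonucleotide and were homozygous, per the labels' protocols. The protocol lists R744X as the other SORL1 edit beside A528T, and the H9 cells, which carried both alleles at the INPP5D site, were made homozygous for the A allele. Edited cells were isolated as clones, so a line may be 1 clone. Libraries titled SORL1-A528T carry a genotype label that reads TREM2-KO and were grouped by title. The labels do not say that replicates were separate differentiations, so p-values below cover only library-to-library spread, which can be technical.

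Most ZNF genes of chromosome 19 encode proteins with an array of C2H2 zinc fingers that binds DNA and a KRAB domain. The KRAB domain recruits TRIM28 (KAP1), which brings the histone methyltransferase SETDB1 and HP1 proteins, and the bound DNA, often a transposable element, is silenced. The genes arose by tandem duplication and lie side by side in clusters. ZNF91 and ZNF93 are known repressors of SVA and LINE retrotransposons, and ZNF274 is known for binding the 3′ ends of other zinc finger genes.

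The promoters that follow illustrate the groups described below. Each is the stretch of 250 bases before the annotated gene start, 5′ to 3′ on the gene's strand, from RefSeq (GRCh38.p14). Capitals mark 3 words on either strand: CCGGAAG, the core of sites of ETS factors (printed as CTTCCGG on the other strand), TCCAATCA, which extends the CCAAT box, and TGTCACTC. The last pair were chosen after word counts in these promoters had been seen. ZNF91 (chr19:23395472-23395721, minus strand) and ZNF93 (chr19:19900696-19900945, plus) stand for the cluster that shares the extended CCAAT word. ZNF274 (chr19:58182811-58183060, plus) stands for the starts called in every library. ZNF875 (chr19:37312587-37312836, plus) is the start whose calls differed most between lines. ZNF578 (chr19:52453303-52453552, plus) and ZNF667 (chr19:56477346-56477595, minus) had starts called in no library.
ZNF91: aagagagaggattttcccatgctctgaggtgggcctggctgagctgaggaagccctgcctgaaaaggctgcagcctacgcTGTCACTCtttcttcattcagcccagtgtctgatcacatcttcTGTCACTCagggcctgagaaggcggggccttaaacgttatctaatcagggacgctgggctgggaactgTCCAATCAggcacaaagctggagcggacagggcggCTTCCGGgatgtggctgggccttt
ZNF93: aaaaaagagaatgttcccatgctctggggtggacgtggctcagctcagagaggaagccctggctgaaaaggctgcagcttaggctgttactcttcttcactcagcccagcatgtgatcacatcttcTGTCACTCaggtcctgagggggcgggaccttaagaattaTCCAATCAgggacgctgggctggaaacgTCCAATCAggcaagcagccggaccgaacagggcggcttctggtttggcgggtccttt
ZNF274: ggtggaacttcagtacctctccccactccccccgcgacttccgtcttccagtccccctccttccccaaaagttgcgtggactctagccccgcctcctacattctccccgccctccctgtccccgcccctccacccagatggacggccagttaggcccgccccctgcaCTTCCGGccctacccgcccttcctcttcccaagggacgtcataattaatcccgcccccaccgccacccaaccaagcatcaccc
ZNF875: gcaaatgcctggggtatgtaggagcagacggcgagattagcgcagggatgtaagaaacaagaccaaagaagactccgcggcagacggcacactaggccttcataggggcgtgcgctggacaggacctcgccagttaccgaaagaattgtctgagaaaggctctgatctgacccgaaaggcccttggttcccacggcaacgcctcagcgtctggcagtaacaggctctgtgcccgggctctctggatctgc
ZNF578: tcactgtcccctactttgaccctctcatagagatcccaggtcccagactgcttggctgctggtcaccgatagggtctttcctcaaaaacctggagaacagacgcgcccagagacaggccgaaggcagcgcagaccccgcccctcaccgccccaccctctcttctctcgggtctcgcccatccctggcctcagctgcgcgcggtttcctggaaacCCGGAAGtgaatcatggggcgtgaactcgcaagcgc
ZNF667: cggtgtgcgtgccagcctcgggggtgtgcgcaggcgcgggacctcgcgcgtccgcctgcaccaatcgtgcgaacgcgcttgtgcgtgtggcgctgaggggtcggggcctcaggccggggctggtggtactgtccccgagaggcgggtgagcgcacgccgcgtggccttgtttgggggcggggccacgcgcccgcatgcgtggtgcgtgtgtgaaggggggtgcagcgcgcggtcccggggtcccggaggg

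Depth followed the replicate number. Replicate 1 libraries had 56.5 M to 67.4 M tags, replicate 2 had 12.8 M to 17.5 M and replicate 3 had 32.6 M to 52.9 M, and the lists held 39736 to 102891 peaks. A list gives positions and no height, so a library either calls a region or does not. The shortest list, SORL1-A528T 2, also called the fewest members, 213 of 324 (65.7%), and TREM2-R47H 1 the most, 279 (86.1%). Of 14 microglia and macrophage markers, 8 had the start called in all 21 libraries (either gene end where the strand was unknown, as for SPI1) and 6 in 9 to 20. Of 6 pluripotency markers, 5 had no call and PRDM14 was called in 7 libraries. Of 5 mast and erythroid markers 4 had none and KLF1 was called in 14. Of 4 mesenchymal markers 1 had none, and TWIST1, COL1A1 and PDGFRA were called in 18, 15 and 12. Of 4 neural markers 2 had none, PAX6 was called in 1 and ELAVL3 in 17. The microglial markers CX3CR1 and CD14 were called in 14 and 9. Over all genes 44.4% of starts were called in all libraries and 26.8% in none.

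Starts of the zinc finger genes were mostly called, and more often than those of all genes in each library. Strand was known for 210 of the 239 genes, and a start was counted as called when a region within 1 kb of it was called. Of the 210 starts, 148 (70.5%) were called in all 21 libraries, 25 in some and 37 (17.6%) in none. Over all 15811 protein-coding genes with a known strand the shares were 44.4% in all and 26.8% in none. Where peaks had to cover 50% of a region, 83 zinc finger starts (39.5%) and 16.4% of all starts were called in all libraries. The other genes of chromosome 19 stood lower, with 303 of 975 (31.1%) called in all, and ZNF genes of other chromosomes nearer, with 128 of 195 (65.6%). Called in none were 31.9% of the former and 11.8% of the latter. Within single libraries 71.9% to 82.4% of the zinc finger starts were called, against 48.4% to 69.0% of all starts, and the share was higher in each of the 21 libraries. Calls at 3′ ends were few: 7 of 210 (3.33%) were called in all libraries and 198 in none. Over all genes 6.07% of 3′ ends were called in all.

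**Figure D1:**
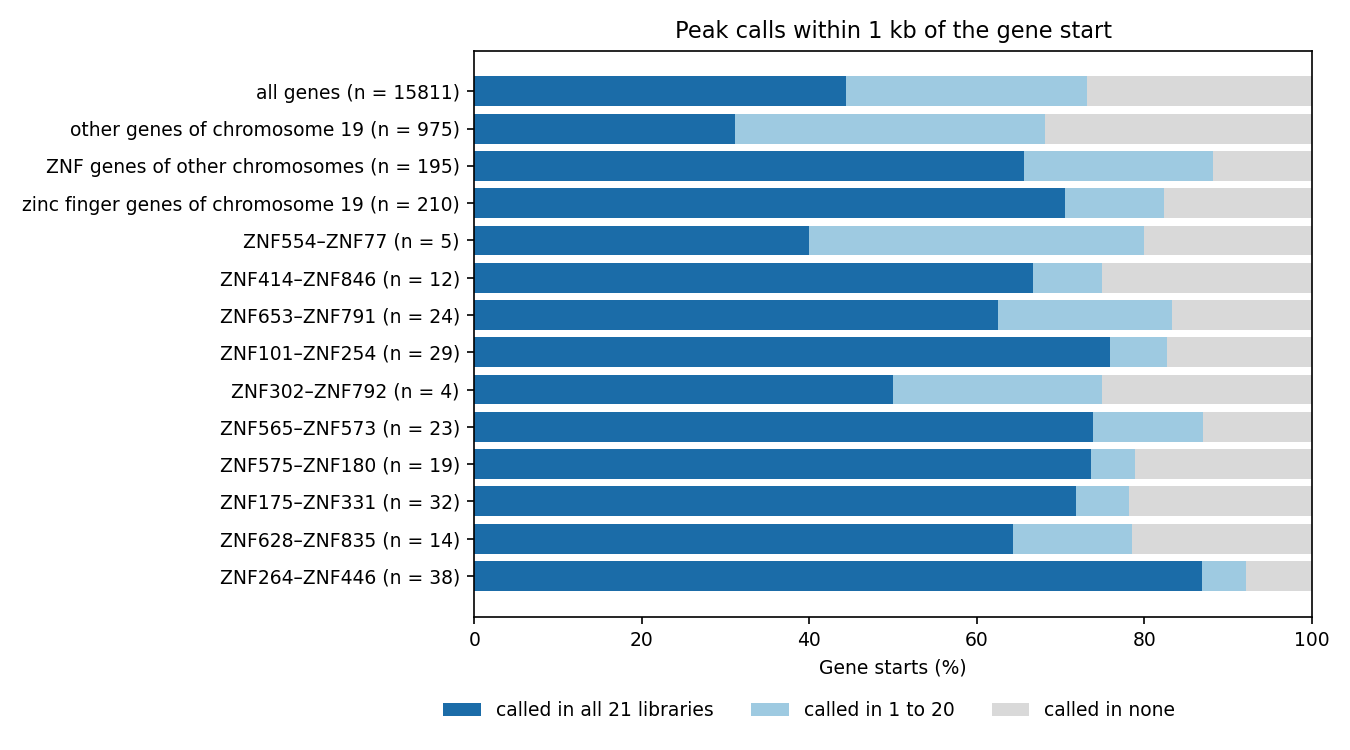
Share of gene starts (%, horizontal axis) called within 1 kb in all 21 libraries (dark blue), in 1 to 20 (light blue) or in none (grey), for all genes, the comparison sets and each cluster, with the number of genes. The zinc finger genes of chromosome 19 reach 70.5% called in all libraries, all genes 44.4% and the cluster ZNF264 to ZNF446 86.8%.

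Among the regions themselves, 187 of the 324 members (57.7%) lay within 1 kb of a gene end, against 9.73% of all regions. So did 893 of the 2966 other regions of chromosome 19 and 223 of the 1211 regions of ZNF genes elsewhere. Of the gene-end members 158 (84.5%) were called in all 21 libraries, against 46.9% of all gene-end regions and 34.7% of the other gene-end regions of chromosome 19. Gene-end regions of ZNF genes on other chromosomes stood nearer, with 136 of 223 (61.0%). The other 137 members were called less steadily, 43 (31.4%) in all libraries, where regions away from gene ends reached 7.86% among the others of chromosome 19 and 16.2% among those of ZNF genes elsewhere. Their place in the lists was less different. The lists are not in genomic order, what orders them is not stated in the headers, and a percentile of 100 is the first peak of a list. The 158 constant gene-end members had median percentiles of 78.6 to 91.8 by library, and the 7450 other constant gene-end regions 79.0 to 93.7. The members stood lower in 18 of 21 libraries. Among constant members the highest median percentile was 98.6, at the start of ZNF724, and the lowest 64.9, at the start of ZNF90.

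Genes with well-known roles were found in both classes. The starts of ZNF91, ZNF93 and ZNF274 were called in all 21 libraries. So were those of ZNF224, a repressor of aldolase A, ZNF160, a repressor of TLR4, and ZNF675, an inhibitor of TRAF6 signalling. The region at the ZNF91 start (chromosome 19, 23394352 to 23396262) had a median percentile of 97.8, that at ZNF274 (58182261 to 58184358) 92.9 and that at ZNF93 (19900182 to 19902145) 85.8. Other regions of these genes were sparse: a region 20.6 kb from ZNF91 was called in 4 libraries and an intragenic ZNF91 region in 1. ZNF331, an imprinted gene, had no call at its annotated start. Its pair of regions lay inside the gene (53520223 to 53521723 and 53537088 to 53538846) and both were called in all 21 libraries. ZNF420, known as a restraint on p53, and ZNF667 had no call at the start either.

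Along the chromosome 227 of the 239 genes fell into 10 clusters, defined as at least 5 genes with neighbours at most 500 kb apart. The clusters spanned 14.4 Mb and held 30.8 regions per Mb of any kind, while the rest of the chromosome held 64.4. Open regions were most spread out in the cluster from ZNF101 to ZNF254 near the centromere, where 36 genes in 4.46 Mb had 11.7 regions per Mb. The cluster from ZNF575 to ZNF180 had 66.0 regions per Mb. In the cluster nearest the end of the long arm, ZNF264 to ZNF446, 33 of 38 starts (86.8%) were called in all libraries. In ZNF101 to ZNF254 the count was 22 of 29 (75.9%), in ZNF565 to ZNF573 17 of 23 (73.9%), in ZNF575 to ZNF180 14 of 19 (73.7%) and in ZNF175 to ZNF331 23 of 32 (71.9%). ZNF414 to ZNF846 had 8 of 12, ZNF628 to ZNF835 9 of 14 and ZNF653 to ZNF791 15 of 24. The smallest clusters had 2 of 5 (ZNF554 to ZNF77) and 2 of 4 (ZNF302 to ZNF792). The 10 strand-known genes outside clusters had 3. No test was made between clusters.

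**Figure D2:**
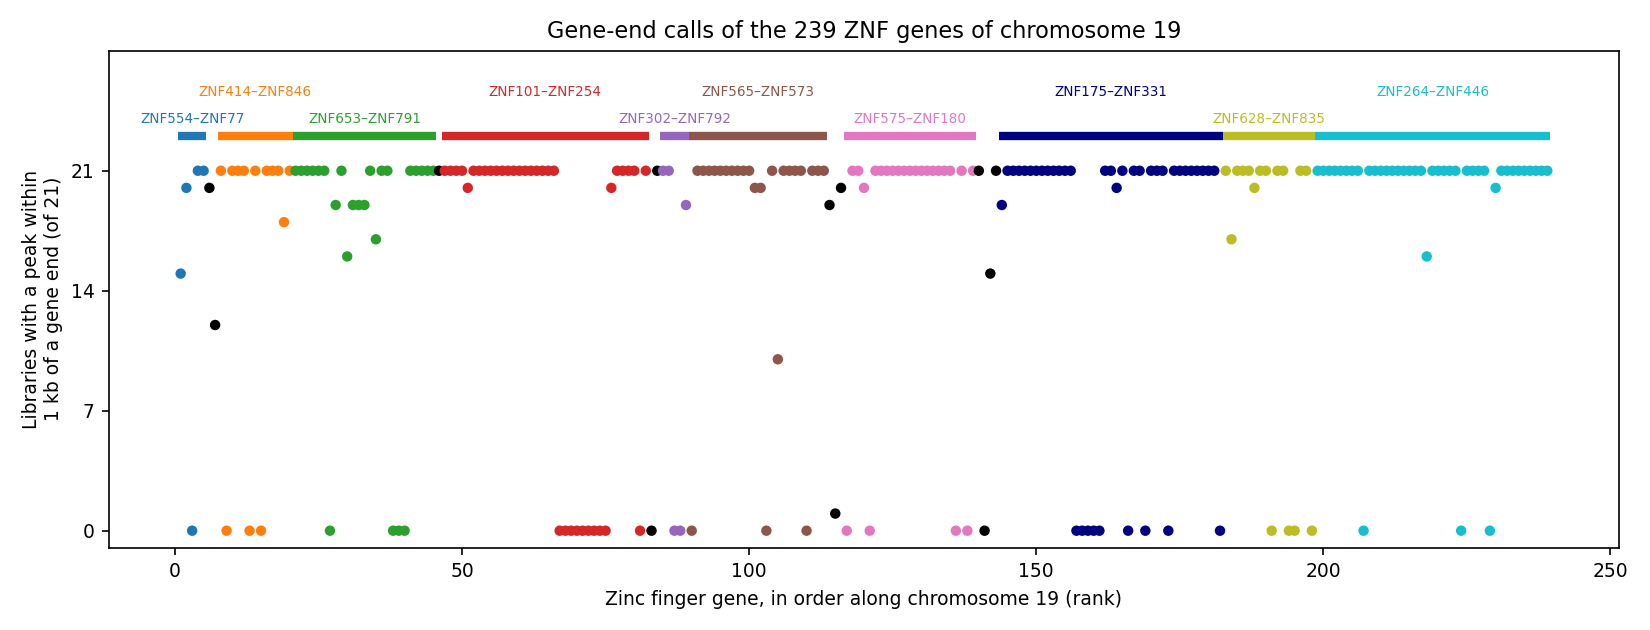
Number of libraries (of 21, vertical axis) with a peak within 1 kb of either gene end, for each of the 239 genes in their order along chromosome 19 (horizontal axis, rank); colours and bars mark the 10 clusters and black points genes outside them. Most genes sit at 21 or at 0, and 28 lie between.

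The genes mostly had a start of their own. Of the 210 starts, 22 (10.5%) shared a called region with the start of another gene, 12 of them with another zinc finger gene of the chromosome, such as ZNF568 with ZNF829. Over all genes the share was 15.7%. Of the 203 genes with a region, 134 had 1, and 5 genes had at least 5: ZNF536 with 12, ZNF507 and ZNF787 with 7 each, ZNF175 with 6 and ZNF552 with 5. Within their clusters ZNF175, ZNF787 and ZNF552 had the most regions. In the other clusters the genes with most regions were ZNF77 with 2, ZNF565, ZNF790 and ZNF875 with 3 each, and ZNF846, ZNF69, ZNF724, ZNF792 and ZNF285 with 4 each. ZNF536, a regulator of neuronal differentiation outside the clusters, was the exception in kind, with 12 regions and none at a gene end or called in all libraries.

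Of the 45 genes with no end called in any library, 21 lay in 5 runs of neighbours and 24 stood alone. The longest run was a stretch of 9 neighbours, ZNF208, ZNF257, ZNF676, ZNF729, ZNF98, ZNF492, ZNF99, ZNF723 and ZNF728, none with an end called in any library (chromosome 19, 21939815 to 23003176, 1063 kb). The whole stretch held 1 region, inside ZNF208 (21996939 to 21997439), called in SORL1-A528T alone and there in 1 library of 3. Its neighbours on either side were open: the start of ZNF43 was called in all 21 libraries and that of ZNF730 in 20. A second run, ZNF610, ZNF880, ZNF528, ZNF534 and ZNF578, covered 187 kb (52330221 to 52516882) and also held 1 region. ZNF563, ZNF442 and ZNF799 formed a run of 3, and ZNF599 with ZNF30 and ZNF667 with ZNF471 were pairs.

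The 37 uncalled starts held more CpG than the uncalled starts of all genes. Their 300-base promoters (250 bases before the start and 50 after) held a median of 18 CpG, close to the 20.5 of the zinc finger starts called in every library. Uncalled starts of all genes held a median of 6. At least 10 CpG stood in 91.9% of the 37 promoters and in 37.2% of uncalled promoters of all genes. Such promoters were general among ZNF genes, with 93.3% of the 210 and 89.7% of those on other chromosomes. Uncalled ZNF starts of other chromosomes were not counted apart. ZNF667, with 42 CpG, is an extreme case, far above the upper quartile of 23 among the 37. A zero here means that no peak passed the caller in 21 libraries, not that the promoter is shut in every cell. Of the 37 genes, 14 had a region called in all libraries elsewhere in their span. Among them were ZNF558, ZNF420, ZNF540, ZNF112, ZNF320, ZNF331, ZNF444 and ZNF814. Some of those regions lay at an end of another gene, at ZNF558 the start of MBD3L1 and at ZNF540 an end of ZNF571. Of the 37, 16 were the nearest gene of no region, among them ZNF177, ZNF560, ZNF404, ZNF135 and ZNF835. Near-identical copies can lose reads that map to more than 1 place. Of the 37 promoters 4 (10.8%) shared a stretch of 50 bases with another promoter, and of the 148 called in all libraries 14 (9.46%) did. Over all genes 12.5% did. Overlapping promoters of neighbouring genes count as shared too, so these shares do not measure near-identical copies. Loss of reads at such copies and identity with sequence outside promoters were not tested.

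Promoter words differed sharply between clusters. The ETS word CCGGAAG, searched on both strands, stood in 93 of 210 promoters (44.3%), against 14.2% of all 15811 and 36.9% of ZNF promoters on other chromosomes. It was frequent in ZNF302 to ZNF792 (3 of 4), ZNF101 to ZNF254 (21 of 29), ZNF264 to ZNF446 (25 of 38) and ZNF175 to ZNF331 (20 of 32), and rare in ZNF653 to ZNF791 (2 of 24). It stood in 72 of 148 starts called in every library (48.6%) and in 14 of 37 called in none (37.8%). The ZNF578 promoter printed above carries it with no call. The matches had a median position 18 bases before the start.

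The extended CCAAT word TCCAATCA stood in 52 of the 210 promoters (24.8%) and in 1.81% of all. All 52 belonged to 3 clusters: 29 of 29 promoters in ZNF101 to ZNF254, 19 of 24 in ZNF653 to ZNF791 and 4 of 5 in ZNF554 to ZNF77. Of 76 matches 75 read in the direction of the gene, at a median of 60.5 bases before the start, as in ZNF91 and ZNF93 above. The second word, TGTCACTC, stood in 26 of 29 and 12 of 24 promoters of the first 2 of these clusters, in 1.37% of all promoters and in no other cluster here. All of its 47 matches read in the direction of the gene. Since these words were picked for their frequency in these promoters, the counts describe them and test nothing. Called and uncalled starts carried TCCAATCA at like shares: it stood in 37 of 148 starts called in all libraries (25.0%) and in 8 of 37 called in none (21.6%).

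Words of 10 letters were picked the same way, the most frequent against all promoters in each of 8 clusters. GGGACTTCCG stood in 15 of 38 promoters of ZNF264 to ZNF446 and in 1 other zinc finger promoter of the chromosome. The 15 starts were all called in every library, as were 18 of the 23 starts of the cluster without it. AATTCTGGGA stood in 9 of 19 promoters of ZNF575 to ZNF180 and in no other of the 210, with 8 of the 9 starts called in all libraries and 6 of the 10 without it. The share of all promoters with the word was 0.506% and 0.158%. GAAGTGACGT stood in 5 of 12 promoters of ZNF414 to ZNF846, with 3 of the 5 starts called in all libraries and 5 of the 7 without it. Other words were more widespread: AGGCCCCGCC stood in 16 of 32 promoters of ZNF175 to ZNF331, in 27 other zinc finger promoters and in 4.42% of all, and GCGCAGGCGC in 5 of 14 of ZNF628 to ZNF835, in 9 others and in 4.60% of all. Common words were uneven between clusters too, the CCAAT box from 17.4% to 100.0% and the SP word from 30.4% to 100.0%. The SP word GGGCGG stood in 69.5% of the zinc finger promoters and 58.5% of all, the CCAAT box CCAAT (contained in TCCAATCA) in 52.9% and 36.3%, the NRF1 word (given by its name alone) in 12.9% and 8.58%, the YY1 word AAGATGG in 7.62% and 6.40%, and the TATA word TATAAA in 1.90% and 9.64%. A match is a string of letters and not a bound site.

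**Figure D3:**
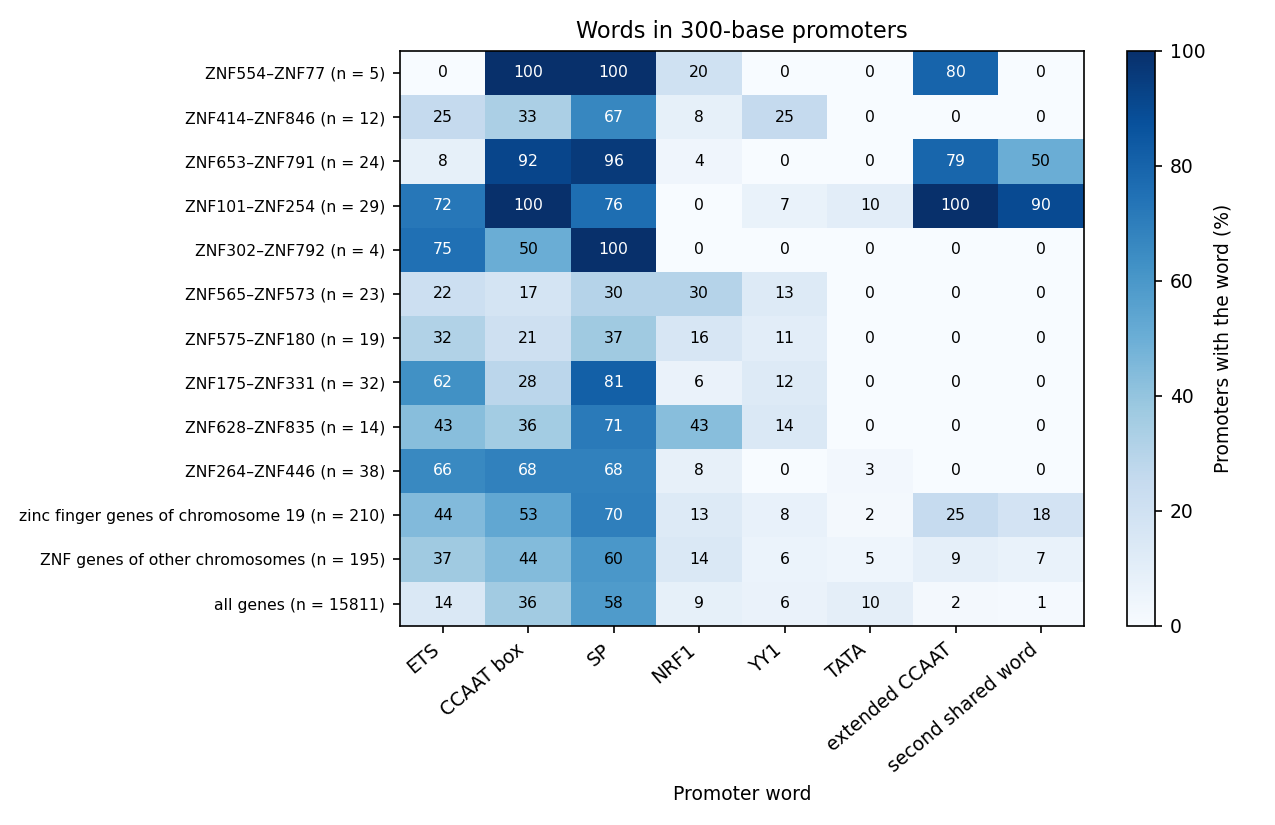
Share of 300-base promoters (%, colour and printed value) with each of 8 words (columns, both strands) in the 10 clusters and in 3 wider sets (rows, with the number of promoters). The extended CCAAT word reaches 100% in ZNF101 to ZNF254 and 0% in 7 clusters, while the ETS word is spread over 9 clusters.

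Only 29 of the 187 gene-end members were not called in every library, and 18 of the 29 were missing from replicate 2 libraries alone, the shallow ones. At 8 regions SORL1-A528T 2, the shortest list, was the only library without a call: at the starts of ZNF555, ZNF557, ZNF682, ZNF568, ZNF526, ZNF283, ZNF581 and ZNF329. The second of 2 regions at the start of ZNF175 shows the same order. It (51572238 to 51572941) was called in 6 of 7 replicate 1, 0 of 7 replicate 2 and 7 of 7 replicate 3 libraries. The start of ZNF154, a promoter often methylated in tumours, was called in 16 libraries and missing from WT 2, SORL1-A528T 2 and 3, SORL1-KO 2 and INPP5D SNP 2. At ZNF554 the start was called in 15, missing from 5 replicate 2 libraries and TREM2-KO 3. The start of ZNF358 was called in TREM2-R47H 1 alone.

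**Figure D4:**
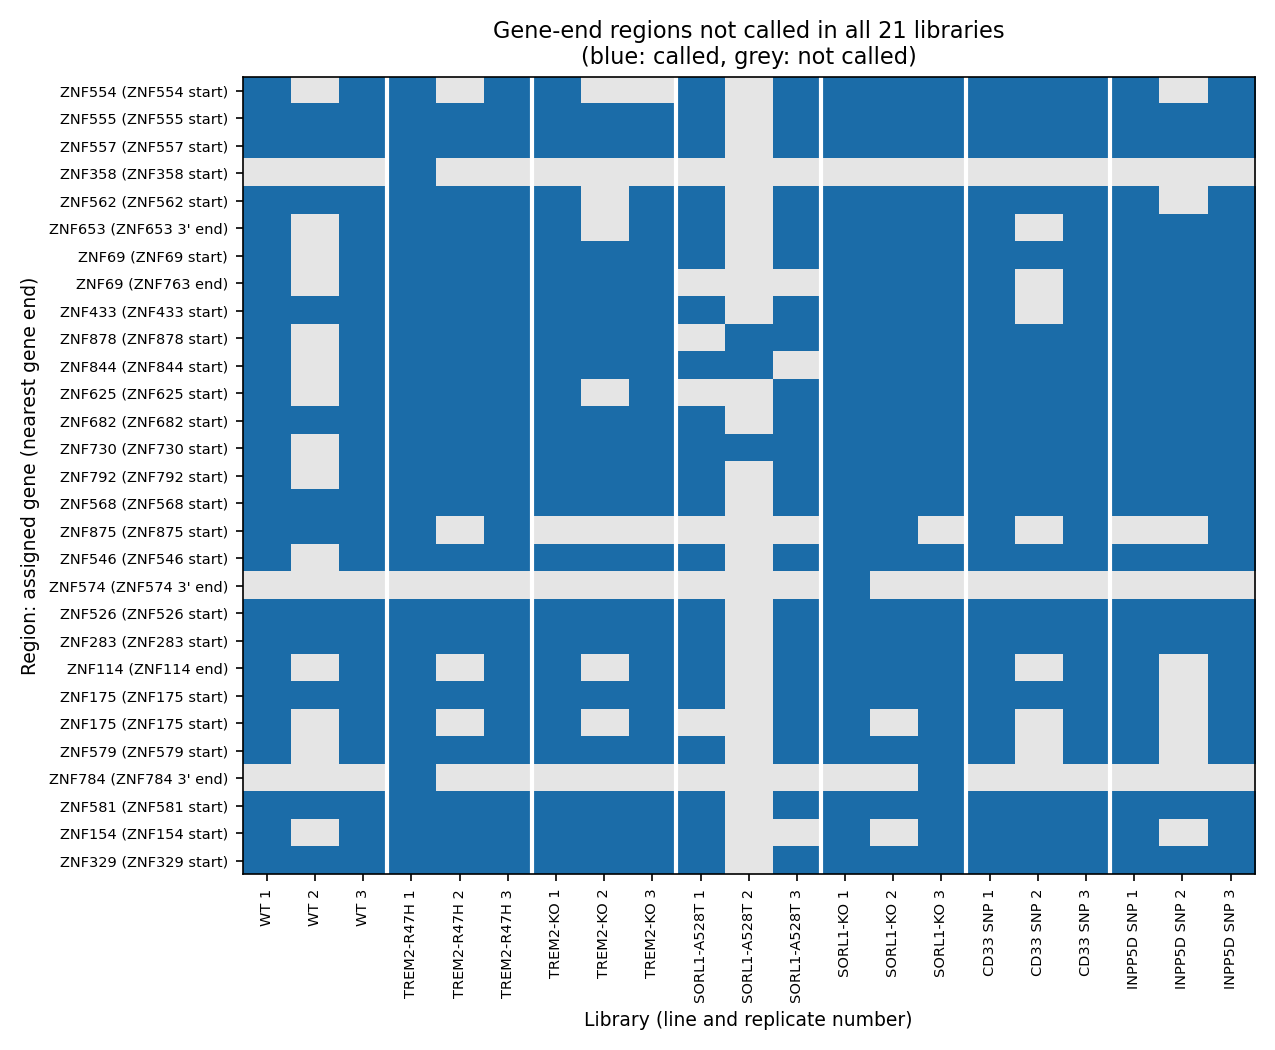
Calls (blue) and missing calls (grey) of the 29 gene-end regions not called in all libraries, by region (rows, assigned gene and nearest gene end) and library (columns, 3 per line). Grey cells gather in the replicate 2 columns and in SORL1-A528T 2, and the row of the ZNF763 end, empty in SORL1-A528T, and that of the ZNF875 start hold both full and empty lines.

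The start of ZNF875, a KRAB zinc finger gene of the cluster ZNF565 to ZNF573, varied most by line (chromosome 19, 37312504 to 37313273). It was called in WT 1, 2 and 3, in TREM2-R47H 1 and 3, in SORL1-KO 1 and 2, in CD33 SNP 1 and 3 and in INPP5D SNP 3. No TREM2-KO or SORL1-A528T library called it. WT thus had 3 of 3 calls, those lines 0 of 3, and the remaining lines 1 or 2. It stood late in the lists that called it, at a median percentile of 9.84. With 3 against 3 libraries an exact test cannot go below a p of 0.1, and none was made per region. Both comparisons share the WT libraries. With equal list lengths the region was lost in neither, but that setting cannot check the difference. It kept only the first peaks of each list, as many as the shortest list held. The region's highest percentile in any library was 37.4, too late for the shortened lists of WT 1 and WT 3. WT could therefore not keep 3 of 3 calls.

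Counted over all members, all-or-none differences, with every library of 1 line calling a region and no library of the other, were few. Against WT, TREM2-KO lost 1 of 324 members (0.309%), ZNF875, where 0.0576% of all regions were lost. SORL1-A528T lost the same 1 (0.309%), where 0.487% of all regions were lost. No member was gained in either, where 0.048% and 0.0114% of all regions were. TREM2-R47H gained and lost 0 members (0.127% and 0.303% of all regions), SORL1-KO 0 and 0 (0.0624% and 0.233%), CD33 SNP 0 and 0 (0.0954% and 0.0414%) and INPP5D SNP 0 and 0 (0.0276% and 0.142%). At such background shares a count of 0 or 1 member is no result about the zinc finger genes.

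Between alleles of a gene the pattern was the same. TREM2-R47H against TREM2-KO gained 1 member (background 0.345%), a region inside ZNF581 (55638865 to 55639572) called in 3 and 0 libraries. It lost 1 (0.288%), a region inside ZNF808 (52535483 to 52536651) called in 0 and 3. SORL1-A528T against SORL1-KO lost 3 members (1.1%) and gained none (0.112%). The losses were an intragenic ZNF536 region (30554720 to 30555570), a region 20.4 kb from ZNF430 (20999571 to 21000243), and a region at the end of ZNF763 that lies in the span of ZNF69 (11964527 to 11965754). The last was called in 0 of 3 SORL1-A528T libraries and in 16 of the 18 others, all but WT 2 and CD33 SNP 2. No member was missing from a single line and called in at least 17 of the 18 other libraries. Of the 47022 regions open enough to qualify, 0.287% were so missing from SORL1-A528T, 0.0489% from TREM2-R47H, 0.0106% from SORL1-KO, 0.00638% from TREM2-KO, 0.00425% from INPP5D SNP, 0.00213% from CD33 SNP and 0.0% from WT.

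Line means of the members were close. To lessen the effect of depth, each call (1 or 0) was set against how often that library called regions of equal recurrence, and the difference, the depth-adjusted call, was averaged over the 324 members. A region called in all 21 libraries scores 0 in each by definition. Most members were such regions, which draws the line means together. WT stood at -0.00577 ± 0.00427 (SD, n = 3), TREM2-R47H at 0.0223 ± 0.0223, SORL1-KO at 0.0157 ± 0.00712, CD33 SNP at -0.00389 ± 0.0139, INPP5D SNP at -0.00645 ± 0.00947, TREM2-KO at -0.0101 ± 0.0235 and SORL1-A528T at -0.0118 ± 0.000706 (each SD, n = 3). The libraries of TREM2-R47H, SORL1-KO and SORL1-A528T did not overlap those of WT, the first pair lying above and the last below. The differences were 0.0281, 0.0215 and -0.00607. SORL1-A528T also lay below SORL1-KO without overlap (-0.0276). Where peaks had to cover 50% of a region both signs turned, to 0.0148 above WT and 0.00521 above SORL1-KO. The members were chosen with earlier results known, so these means carry no test. In each comparison 76.5% to 85.8% of the members had the same number of calls in both lines, against 55.0% to 62.0% of all regions. A region called in all 21 libraries is equal by definition, and such regions made up 62.0% of the members and 15.4% of all regions. The gap therefore does not show that the members differ less between lines.

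**Figure D5:**
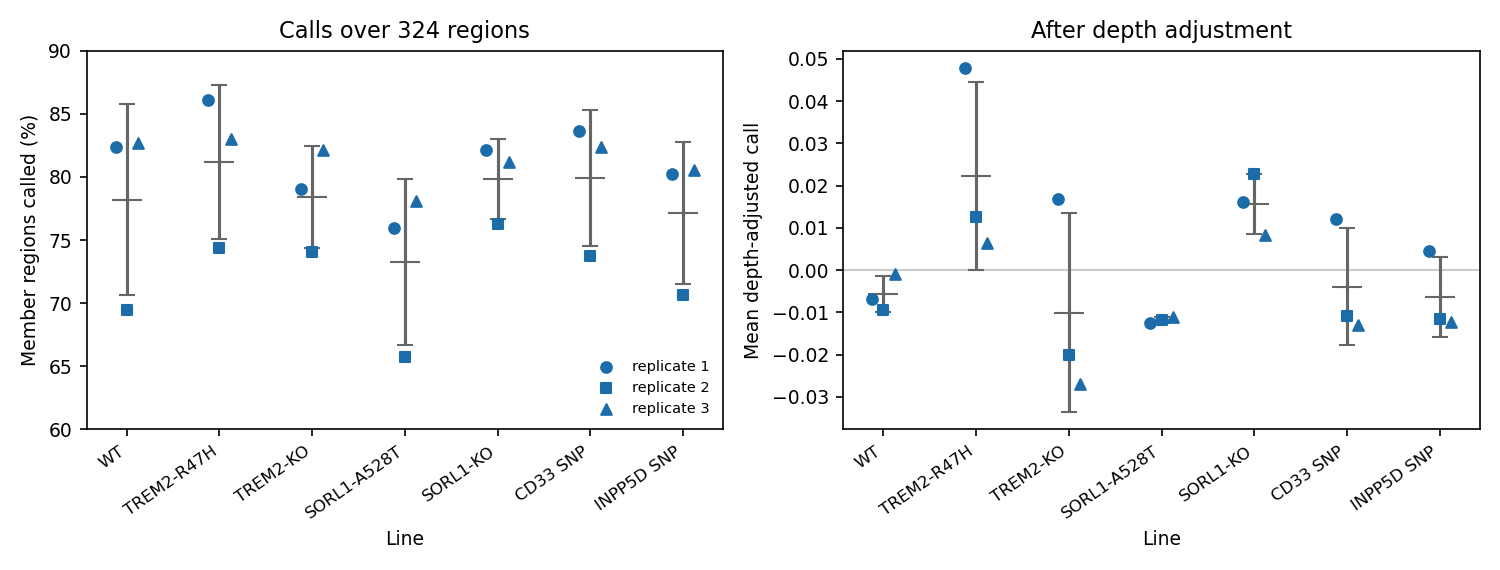
Left, share of the 324 member regions called (%, vertical axis from 60) and right, their mean depth-adjusted call, for each library (points, shape by replicate number) of the 7 lines, with line mean and SD (bars, n = 3). Replicate 2 libraries are lowest in every line on the left, and on the right TREM2-R47H ranges from 0.00649 to 0.0479 and WT from -0.00936 to -0.00104.

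By gene, limma was run on the mean depth-adjusted call of the 8429 genes with at least 5 regions, 5 of which were zinc finger genes of chromosome 19. None of the 5 passed an adjusted p of 0.05 in any of 8 comparisons, where 0.0% of genes passed in 7 and 0.0119% in INPP5D SNP against WT. ZNF536 in TREM2-R47H against WT was the single case with an unadjusted p below 0.05 by limma, where 8.53% of all genes tested were below it. Its 3 WT libraries stood at -0.154, 0.00993 and 0.0137 and its 3 TREM2-R47H libraries at 0.0659, 0.0503 and 0.286. The groups did not overlap, and 1 library is far from its fellows in each. The difference was 0.177 ± 0.0800 (SE), with an adjusted p of 0.557 by limma. In SORL1-A528T the 3 libraries stood at -0.115, -0.0602 and -0.189, and the difference from SORL1-KO was -0.139 ± 0.0800 (SE, adjusted p = 0.870 by limma).

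ZNF536 was also the lead in TREM2-KO against WT (0.0677 ± 0.0800, SE) and in TREM2-R47H against TREM2-KO (0.110 ± 0.0800, SE). ZNF787 led in SORL1-A528T against WT (0.121 ± 0.0588, SE) and SORL1-KO against WT (0.0935 ± 0.0588, SE), ZNF507 in CD33 SNP (0.0675 ± 0.0844, SE) and ZNF175 in INPP5D SNP (-0.0878 ± 0.0993, SE). Adjusted p-values by limma were between 0.528 and 1.000 for these.

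Along the clusters, the chromosome was cut into bins of 1 Mb, and 32 of its bins held members. No such bin passed in any comparison of limma over 2849 bins, fitted without a block for the replicate number. Of all bins 0.0702% passed in TREM2-R47H against WT and against TREM2-KO and 0.0% elsewhere. With the block, bins with and without members passed in TREM2-R47H against TREM2-KO, as given in the closing part. At an unadjusted p below 0.05 by limma stood 1 of the 32 bins in TREM2-R47H against WT, beside 151 of all 2849 bins. In TREM2-R47H against TREM2-KO there were 6 of the 32, beside 513 of all 2849. Against that background these counts are no result about the bins with members. In TREM2-R47H against TREM2-KO 27 of the 32 bins were higher in TREM2-R47H, with a median difference of 0.0834. The median over all bins was -0.0153. The 24 bins of chromosome 19 without members were as a rule higher too, 23 of 24 with a median of 0.129. Bins of the chromosome with and without zinc finger regions thus both lay above the median of all bins.

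Of the 32, the bin with the smallest p in that comparison ran from 11 to 12 Mb and held 15 members of ZNF653, ZNF69, ZNF763, ZNF440, ZNF441, ZNF491, ZNF627 and ZNF823 among 51 regions. The 3 TREM2-R47H libraries stood at 0.171, 0.0507 and -0.00300 and the 3 TREM2-KO libraries at -0.0215, -0.144 and -0.112. All TREM2-R47H libraries lay above all TREM2-KO libraries, by 0.166 ± 0.0501 (SE, adjusted p = 0.234 by limma). The bin passed without replicate 1 (adjusted p = 0.0445 by limma), and 6 bins with members did so in that fit, where 12.2% of all bins passed. In TREM2-R47H against WT the 32 bins had a median of 0.0549 and the other 24 bins of the chromosome 0.0846. In SORL1-A528T against WT the medians were 0.0294 and 0.0720, in SORL1-KO 0.0434 and 0.0747, in INPP5D SNP 0.0242 and 0.0361, in CD33 SNP -0.00455 and -0.00920 and in TREM2-KO -0.0270 and -0.0440. These comparisons share the WT libraries.

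Of 22 genes that act with KRAB zinc finger proteins in silencing, 14 had the start (either end where the strand was unknown) called in all 21 libraries, 6 in some and 2 in none, beside 44.4% of all genes called in all. TRIM28, the corepressor, CBX3 and CBX5, HP1 proteins, MORC2 and the HUSH subunits TASOR, MPHOSPH8 and PPHLN1 were called in all. SETDB1 was called in 19. The DNA methyltransferases DNMT1, DNMT3A and DNMT3B were called in 21, 20 and 15 libraries. UHRF1, which guides DNMT1 to replicating DNA, and ZFP57, which guards imprints, had no call. Of 15 zinc finger genes of chromosome 19 with other symbols (ZFP, ZSCAN, ZIM, ZBTB, ZIK and PEG3), 7 were called in all, 1 in some and 7 in none. The neighbours ZIM2, PEG3 and ZIM3 and the embryonic gene ZSCAN4 were among those without a call.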

How the data were processed

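The 21 deposited peak lists come from ATAC-seq of 7 lines with 3 libraries each. cutadapt 1.18, STAR 2.7, HOMER 4.10 and DESeq2 appear in the submitters' processing notes, with no role. Per the file headers, the authors called peaks library by library in histone style, with peak size 500, minimum distance 1000 and a 4.00-fold excess over the local 10000 bp. In the deposited lists each peak has a score of 1, so only the other columns, positions, were used, as deposited. Not given in the sources used here are the genome build and any shift of reads for the transposase cut.

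Gene spans came from RefSeq (GRCh38.p14), 19970 genes, and strand, for 15811 of them, from its promoter table. As a check of the build, constant regions covered 21.9% of 39940 gene ends, and 2.75% and 2.86% when shifted by 10 kb. Y and M peaks, 0.0821% of 1604926, were not used. Regions, calls and depth-adjusted calls were computed in Python 3.11.15 with pandas 2.3.3 and numpy 2.4.6. limma 3.58.1 in R 4.3.3 was fitted over all 21 libraries, two-sided, with Benjamini-Hochberg adjustment over all genes (at least 5 regions) or bins (1 Mb, at least 10 regions). The fits were tested on simulated calls for TREM2-R47H against WT. Each call was drawn independently, without any likeness between libraries of the same number, so the shares may not carry over to the data. Raised rates were capped at 1. The gene test called 15.5% of genes with a call rate raised by 0.3 and 38% of those raised by 0.5. Their mean depth-adjusted differences were 0.194 and 0.308. The bin test called 0 of 30 bins raised by 0.1 and 18 of 30 raised by 0.2, with mean differences of 0.0807 and 0.146. A gene or bin that did not pass may therefore still differ. Some genes had zero variance within lines, which limma offsets.

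Named were the gene with the smallest p per comparison, all-or-none regions, the genes with most regions or fewest start calls per cluster and genes with textbook roles. The members and lists were chosen with earlier results of these data known. TDGF1 had no match in the gene table.

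Alternatives were a cover of 50%, lists of equal length (39711 peaks), an expectation by recurrence and class, regions called in at least 2 libraries, at least 3 or 10 regions per gene, windows of 0.5 and 2 kb, leaving out each replicate number or SORL1-A528T, and the replicate number as a block. Calls have no count behind them in the lists, so no interval is given.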

Additional observations from a re-analysis of the deposited data

How the results depend on the processing

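No zinc finger gene passed limma under any alternative run, the replicate block included. In TREM2-R47H against TREM2-KO, 7 of 32 bins with members passed with the replicate block, where 25.8% of all bins passed, and 0 to 6 when a replicate number was left out (6 without replicate 1, where 12.2% of all bins passed). The labels do not say that a number marks a shared batch, and not every same-numbered pair of libraries correlated (median 0.177, lowest -0.0637), so no pairing by number was assumed. As a hint from the data, 18 of 21 libraries correlated best with their own number, and differently numbered pairs had a median of -0.117. Starts called in every library numbered 148 and 83 with a cover of 50%, 139 with equal list lengths, 148 to 166 without 1 replicate number and 158 without SORL1-A528T 2, an alternative chosen after seeing the data. The 3′ ends called in every library, 7, became 1 with a cover of 50%, 4 within 0.5 kb and 12 within 2 kb.

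With equal list lengths, TREM2-R47H gained 2 members against WT and 0 against TREM2-KO, and TREM2-KO lost 0 against WT. SORL1-A528T there gained 1 and lost 0 against WT and gained 2 against SORL1-KO, which was 1 with a cover of 50%. The 0 losses are no check of the ZNF875 start, which stood too late for the shortened lists of WT 1 and WT 3. Leaving out a replicate number, gains and losses against WT ranged over 1 to 3 and 0 to 3 in TREM2-R47H, 0 to 1 and 1 to 4 in TREM2-KO, 0 to 0 and 1 to 7 in SORL1-A528T, 0 to 2 and 0 to 5 in SORL1-KO, 0 to 3 and 0 to 3 in CD33 SNP and 0 to 1 and 0 to 3 in INPP5D SNP. They ranged over 1 to 5 and 1 to 2 in TREM2-R47H against TREM2-KO and 0 to 1 and 4 to 6 in SORL1-A528T against SORL1-KO. Members missing from SORL1-A528T alone numbered 0 to 3 (3 without replicate 2).

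The mean depth-adjusted call of SORL1-A528T against WT was 0.0148 with a cover of 50%, 0.0101 with equal list lengths and -0.00953 to -0.00286 without 1 replicate number. For SORL1-KO against WT these were 0.00959, 0.00865 and 0.0173 to 0.0290. INPP5D SNP against WT was 0.00770 with a cover of 50%, and SORL1-A528T against SORL1-KO 0.00521 and, with equal list lengths, 0.00141. Without 1 replicate number ZNF536 ranged from -0.0835 to 0.173 in TREM2-KO against WT and from -0.0139 to 0.246 in TREM2-R47H against TREM2-KO, and ZNF507 from -0.0730 to 0.144 in CD33 SNP. In the bin at 20 Mb SORL1-A528T against SORL1-KO turned to 0.0143 with equal list lengths. The cause was not tested. Peak lists hold no heights, and a missing call in a shallow library is not a closed region.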
